A study of Homo sapiens with 4 samples.

Results

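The human integrin and laminin genes were described in 2 established ovarian cancer cell lines, ES2 and SKOV3. They were taken from the deposited table by gene symbol: alpha subunits (ITGA followed by a digit or letter), beta subunits (ITGB followed by a number) and laminin chains (LAMA, LAMB or LAMC followed by a digit), leaving out pseudogenes. This gave 37 of 38558 genes, of which 25 encode integrin subunits and 12 laminin chains. RNA was sequenced from 4 groups with 1 library each: untreated ES2, ES2 treated for 48 h with YY-15, untreated SKOV3, and SKOV3 treated for 48 h with YY-15. YY-15 is a compound named in the labels by its code alone; a dose of 4 µM appears in the table's headings for treated cells. Both lines are labelled wild type, and the sources used here do not give the number of cultures behind a library.

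Integrins are receptors made of an alpha and a beta chain that hold cells to the matrix around them and pass signals across the membrane. Laminins are secreted trimers of an alpha, a beta and a gamma chain and form the sheet-like basement membrane on which epithelia rest. In ovarian carcinoma, cells shed into the abdominal cavity are known to use integrins to attach to laminin, fibronectin and collagen of the peritoneal lining.

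Each group held 1 library, so differences have no replicate check and were not tested, and variation between cultures is unknown. Levels are in FPKM, a fragment count corrected for transcript length and sequencing depth, so levels of different genes can be compared. Differences are log2 ratios of FPKM + 1, a scale on which low genes appear to differ less than they do. Brackets hold exact 95% intervals for the ratio of library shares, in log2, taken from estimated counts without a pseudocount; they cover counting error only. Where 4 levels are listed, they are those of untreated ES2, treated ES2, untreated SKOV3 and treated SKOV3. A gene was compared where it reached 1 FPKM in at least 1 of the pair of libraries. Less RNA per cell and fewer cells with the RNA cannot be told apart in such bulk libraries.

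The libraries held between 62522202 and 67431058 estimated counts. Integrin and laminin genes took 0.538%, 0.511%, 0.726% and 0.944% of the counts, highest in treated SKOV3. The labels call both lines epithelial. EPCAM and CDH1, defining epithelial markers, were listed at 0 in both ES2 libraries and did not exceed 1.15 FPKM in SKOV3, while the keratin genes KRT7 and KRT18 lay between 97.7 and 153 FPKM in all 4 libraries. The keratins KRT8 (12.7, 12.7, 247 and 116 FPKM) and KRT19 (0, 0.0363, 20.5 and 12.5) were higher in SKOV3. The mesenchymal marker VIM lay between 754 and 1208 FPKM. PAX8, a marker of ovarian carcinoma, was at 37.4 and 43.7 FPKM in the SKOV3 libraries and at or under 0.119 in ES2, while the other ovarian markers, WT1 and MUC16, did not exceed 0.255 FPKM in any library. Of 3 endothelial markers, CDH5 stood at 19.5 and 16.3 FPKM in ES2, while PECAM1 and VWF did not exceed 0.0501 in any library; the part of these marker differences in the results was not tested.

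Of the 37 genes, 25 reached 1 FPKM in at least 1 library and 20 reached 5 FPKM. The plot of levels shows 24 of these 25 genes by class. The 12 genes under 1 FPKM throughout were ITGA2B, ITGA9, ITGA11, ITGAD, ITGAL, ITGAM, ITGAX, ITGB7, LAMA1, LAMA2, LAMB4 and LAMC3, with a highest value of 0.767 FPKM (ITGA2B in SKOV3 YY-15). Several of these encode chains known from blood cells and platelets, and ITGAM had a count of 0 in all 4 libraries.

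**Figure D1:**
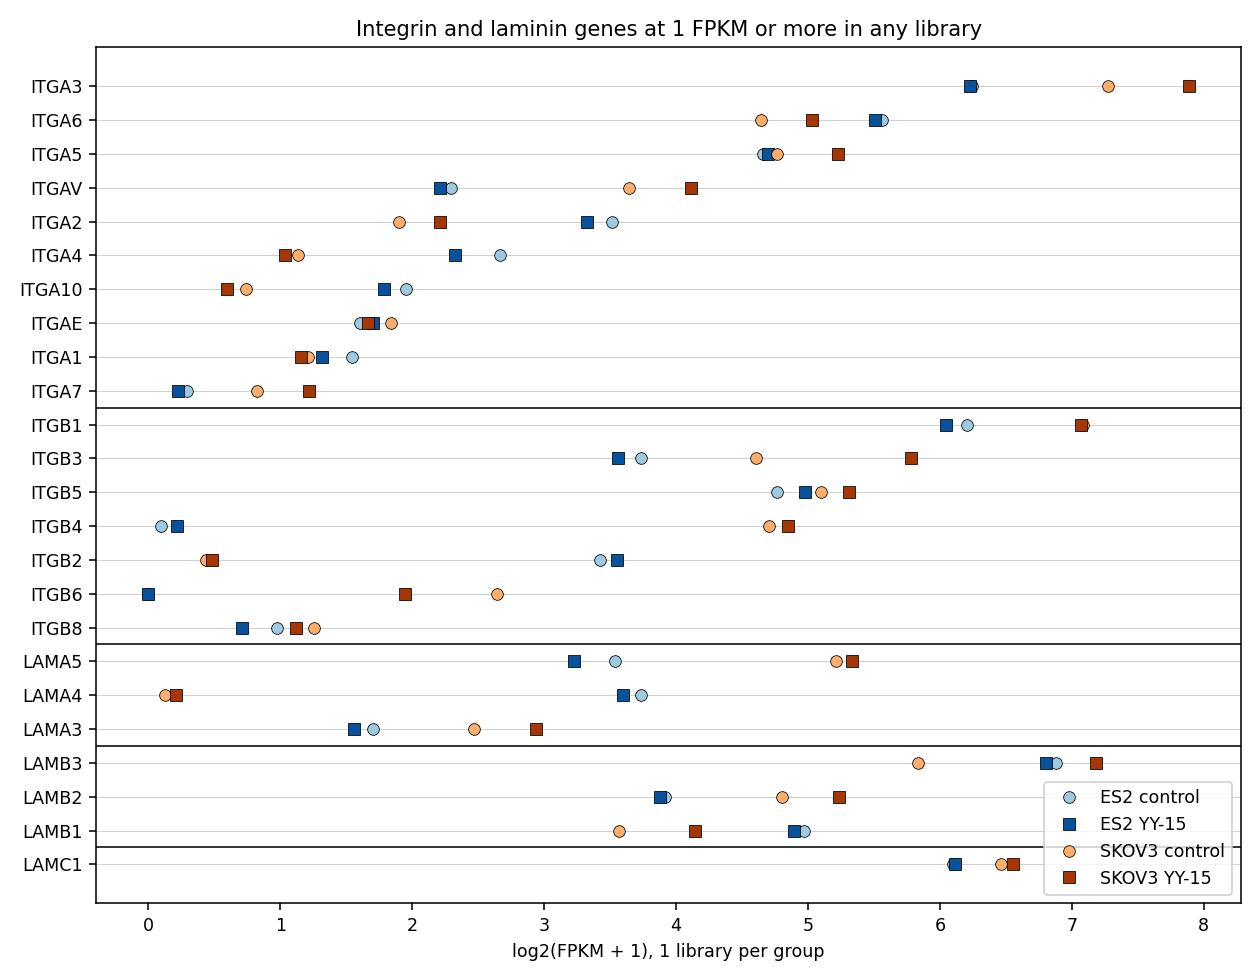
Levels of 24 of the 25 integrin and laminin genes that reached 1 FPKM in any library, as log2(FPKM + 1) on the horizontal axis, with 1 point per library (circles control, squares YY-15; blue ES2, orange and brown SKOV3). ITGB4 and ITGB6 sit near 0 in ES2 alone, LAMA4 and ITGB2 near 0 in SKOV3 alone, and the brown squares of LAMB3 and ITGB3 lie to the right of the SKOV3 control circles.

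Laminin alpha chains carry the main sites that cell-surface receptors bind, and the lines differed in which alpha chain they transcribed. LAMA4, whose chain is found in vessel and mesenchymal basement membranes (ENSG00000112769, chromosome 6, 112107931 to 112254722, GRCh38), was at 12.3, 11.1, 0.0918 and 0.155 FPKM. Both ES2 values were far above both SKOV3 values. Between the control libraries the log2 ratio of SKOV3 to ES2 was -3.61 [-7.38 to -6.73]. LAMA5, a main chain of adult epithelial basement membrane (ENSG00000130702, chromosome 20), ran the other way, at 10.6, 8.35, 36.0 and 39.3 FPKM. Its log2 ratio between the controls was 1.67 [1.73 to 1.79]. LAMA3, the alpha chain of the skin and gland laminin-332, was at 2.26, 1.95, 4.54 and 6.68 FPKM, the lowest of the 3 in ES2 and above LAMA4 alone in SKOV3. LAMA4 made up 48.6% of the summed alpha chain FPKM in ES2 control and LAMA5 41.9%, while LAMA5 made up 88.4% in SKOV3 control.

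LAMB3, the beta chain of laminin-332, was the most abundant beta chain in every library (ENSG00000196878, chromosome 1, 209614870 to 209652425). It stood at 117, 110.4, 56.1 and 145 FPKM. The SKOV3 control was thus the lowest of the 4 libraries and the SKOV3 YY-15 library the highest. Its level exceeded that of its partner chain LAMA3 in all 4 libraries. LAMC1, the gamma chain shared by most laminins, was at 67.6, 68.4, 87.4 and 92.8 FPKM.

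LAMB1 and LAMB2 encode the beta chains that pair with LAMC1. LAMB1 was at 30.3, 28.8, 10.8 and 16.6 FPKM, higher in both ES2 libraries. LAMB2 was at 14.1, 13.7, 26.9 and 36.7 FPKM, higher in both SKOV3 libraries. LAMB1 was thus above LAMB2 in ES2 and below it in SKOV3, with or without YY-15.

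Promoter sequence is shown to display the windows searched for motifs, both with matches (LAMB3, LAMA3 and LAMC1) and without (ITGAV), from the 250 bases before an annotated start; the 20 bases of the LAMB3 window nearest its start lie in an annotated exon and are left out. Sequences are from RefSeq on GRCh38.p14, read 5′ to 3′ along the gene. Capitals mark matches to the AP-1 motif TGANTCA, which is its own reverse complement, and to the GC box GGGCGG or its reverse complement CCGCCC.
LAMB3, minus strand, chr1:209651395-209651624: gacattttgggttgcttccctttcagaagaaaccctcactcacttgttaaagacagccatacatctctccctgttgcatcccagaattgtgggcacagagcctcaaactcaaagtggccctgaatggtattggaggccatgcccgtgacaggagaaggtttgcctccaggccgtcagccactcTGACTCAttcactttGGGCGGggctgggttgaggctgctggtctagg
LAMC1, plus strand, chr1:183023170-183023419: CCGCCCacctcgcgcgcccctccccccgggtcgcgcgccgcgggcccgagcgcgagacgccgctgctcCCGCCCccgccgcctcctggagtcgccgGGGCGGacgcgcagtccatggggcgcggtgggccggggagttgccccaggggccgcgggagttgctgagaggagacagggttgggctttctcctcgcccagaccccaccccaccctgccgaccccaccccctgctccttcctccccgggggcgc
ITGAV, plus strand, chr2:186589806-186590055: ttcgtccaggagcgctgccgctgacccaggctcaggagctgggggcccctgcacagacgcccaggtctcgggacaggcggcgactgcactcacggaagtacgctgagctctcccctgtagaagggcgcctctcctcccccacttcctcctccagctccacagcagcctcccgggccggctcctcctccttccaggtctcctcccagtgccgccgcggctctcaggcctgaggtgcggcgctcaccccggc
LAMA3, plus strand, chr18:23872885-23872911: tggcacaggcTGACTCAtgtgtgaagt
LAMA3, plus strand, chr18:23872941-23872967: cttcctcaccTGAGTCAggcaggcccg
The LAMA3 window overlaps an annotated exon, so only 10 bases to each side of its AP-1 matches are shown. That window also held 1 GC box match, which lies outside the stretches shown.

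AP-1 is the dimer of FOS and JUN family proteins that binds TGANTCA. Among the 37 genes, 25 had a promoter in the table, in 32 windows, and 2 of these genes held the motif in the 250 bases before a start: LAMB3 in 1 of its 3 windows, with its first base at -67 from that start, and LAMA3 in its window, with first bases at -125 and -69. The LAMB3 window shown and the LAMA3 window both lie inside their annotated genes. LAMA3 is annotated from 23689453, and its window starts at 23872770. The other 2 LAMB3 windows, nearer the annotated gene start, did not hold the motif. Of 34788 distinct windows of all genes, 6.59% held it, a share close to the 2 of 32 found here, so nothing about these genes is read from it. The GC box was found in 16 of the 32 windows, against 42.6% of all windows. The ATF4-type motif TGATGCAA, searched on both strands, was found in 1 window, that of ITGB5, against 0.776% of all windows. A match is a description of letters, and which start each line used was not measured.

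Beta chains set much of an integrin's partner range, and several differed widely between the lines; of 7 compared between the controls, 4 reached 1 FPKM in 1 line alone and so had to differ. ITGB4, whose long cytoplasmic tail links the alpha6 beta4 laminin receptor to keratin in hemidesmosomes (ENSG00000132470, chromosome 17, 75721328 to 75757818), was at 0.0671, 0.159, 25.1 and 27.9 FPKM. Estimated counts in these libraries were 33, 78, 12105 and 12525. The ES2 libraries were therefore near 0 while both SKOV3 libraries were above 20 FPKM, and the log2 ratio between the controls was 4.61 [7.95 to 8.98]. GALK1, which overlaps ITGB4 on the opposite strand, was at 8.71, 8.56, 18.1 and 15.5 FPKM.

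ITGB6, the epithelial chain of the TGF-beta-activating alphaV beta6 (ENSG00000115221, chromosome 2, 160099667 to 160271888), had a count of 0 in both ES2 libraries and 2627 and 1332 counts in untreated and treated SKOV3. In FPKM these SKOV3 values were 5.25 and 2.86. With the ES2 count set at a floor of 3, its share of the library was 829.8-fold higher in SKOV3 control than in ES2 control. Between the YY-15 libraries the same floor gave 473.6-fold. These folds take no account of counting error in the SKOV3 counts. The exact intervals, which cover counting error only but in both libraries, had lower limits of 9.40 (controls) and 8.59 (YY-15 libraries) in log2. ITGB2, the beta chain of leukocyte integrins (ENSG00000160255, chromosome 21, 44885953 to 44928873), showed the opposite, at 9.72 and 10.8 FPKM in the ES2 libraries and 0.356 and 0.395 in SKOV3, a log2 ratio of -2.98 [-4.96 to -4.53] between the controls. Its known alpha partners were absent or near absent in ES2: ITGAL, ITGAM and ITGAD had a count of 0 there and ITGAX was at 0.257 and 0.148 FPKM. Of 4 leukocyte markers, 3 are listed in the table, and their summed level lay between 0.0392 and 0.152 FPKM over the libraries, with PTPRC at or under 0.00591. ITGB2-AS1, on the opposite strand of ITGB2, was at 6.92, 6.62, 0.512 and 0.594 FPKM. The sources used here do not say whether strand was used in counting, so reads of this pair may not be fully separated. In all, 10 integrin and laminin genes overlap a gene of 1 FPKM or more on the opposite strand and share this limit. LAMA5 is among them, with ADRM1 at 55.6, 64.9, 66.8 and 59.3 FPKM.

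ITGB1, the beta chain shared by most matrix receptors, was the most abundant beta chain in every library, at 72.8, 65.0, 134 and 133 FPKM. Both SKOV3 values were above both ES2 values. ITGB5, an alphaV partner that binds vitronectin, was at 26.1, 30.4, 33.2 and 38.7 FPKM. ITGB3, the beta chain of the vitronectin and fibrinogen receptor alphaV beta3 (ENSG00000259207, chromosome 17, 47253827 to 47313743), was at 12.3, 10.8, 23.4 and 54.1 FPKM. Its SKOV3 YY-15 library stood apart from the other 3. ITGB8, another alphaV partner, was at 0.960, 0.634, 1.39 and 1.17 FPKM.

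Alpha chains, with their beta partners, set which ligand an integrin binds. ITGA3, the laminin receptor chain of alpha3 beta1, led in every library at 74.9, 74.0, 154 and 236 FPKM, with the SKOV3 values above the ES2 values. It made up 43.4% of the summed alpha chain FPKM in ES2 control and 68.2% in SKOV3 control. ITGA6, the other main laminin receptor chain, was at 46.3, 44.4, 24.0 and 31.7 FPKM, higher in ES2. ITGA5, the chain of the fibronectin receptor alpha5 beta1 (ENSG00000161638, chromosome 12, 54395261 to 54419266), was at 24.2, 24.9, 26.2 and 36.5 FPKM, so that the 2 controls were close. The SKOV3 to ES2 log2 ratio of ITGA5 between the controls was 0.11 [0.08 to 0.15], and it was -0.02 once the trend of ratios on GC content and transcript length was taken out.

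ITGAV, the alpha chain of the vitronectin receptors, was at 3.91, 3.62, 11.5 and 16.3 FPKM, higher in both SKOV3 libraries. The collagen receptor chain ITGA2 was at 10.4, 8.99, 2.74 and 3.62 FPKM, and ITGA4, whose chain binds VCAM1 and fibronectin, at 5.34, 4.0, 1.19 and 1.05 FPKM. Both were higher in ES2. The further alpha chains at or above 1 FPKM in some library (ITGA1, ITGA7, ITGA10 and ITGAE) did not exceed 2.86 FPKM. ITGA1 shares its strand and part of its span with PELO, at 3.62 to 9.93 FPKM, and its values are uncertain.

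Between the untreated lines 24 of the genes could be compared, and 2 were at least 4-fold higher in SKOV3 (ITGB4 and ITGB6) and 2 at least 4-fold lower (LAMA4 and ITGB2). Of all 14024 genes compared, 4.81% were higher in SKOV3 by that much and 3.25% lower. The median log2 ratio of the 24 was 0.31, against 0.07 over all genes; 6 of the 24 reached 1 FPKM in 1 line alone and so had to differ. The median over all genes moved from 0.07 to 0.21 when each library was rescaled to a common sum (TPM), and from 0.13 to 0.41 between the YY-15 libraries. That setting made all values larger but kept the pseudocount and filter at 1, so both weighed less and the moves are not from rescaling alone.

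**Figure D2:**
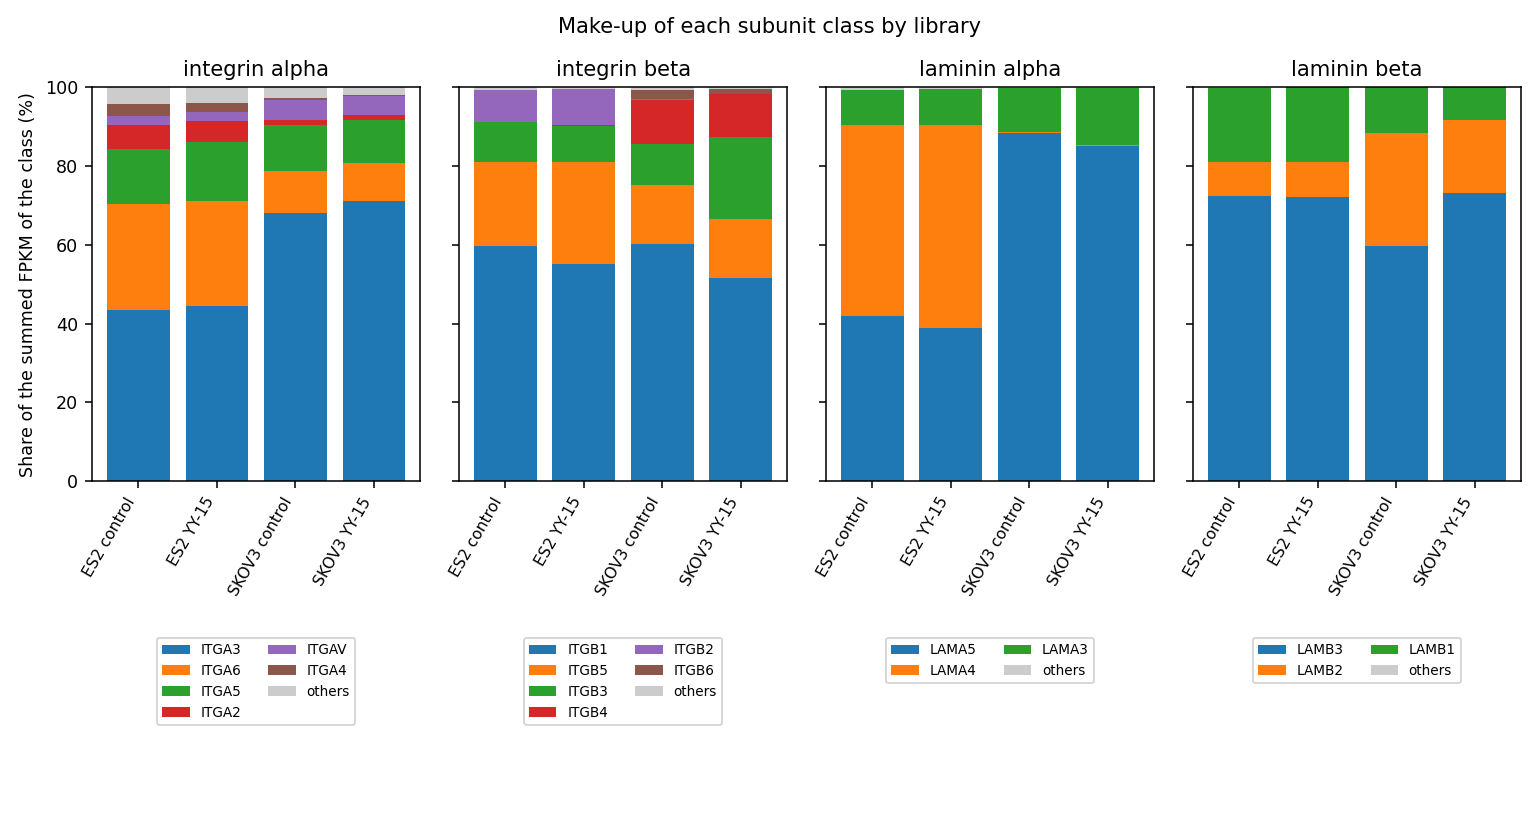
Share of the summed FPKM of the integrin alpha, integrin beta, laminin alpha and laminin beta classes held by their genes, in percent, with 1 bar per library. LAMA4 fills 48.6% of the laminin alpha bar in ES2 control and almost nothing in SKOV3, ITGB4 appears in the SKOV3 bars alone, and ITGB3 takes 20.9% of the integrin beta bar in SKOV3 YY-15 against 10.5% in the SKOV3 control.

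Because each receptor or laminin needs all its chains, the lowest chain of each complex in a chosen list was taken. The lists are not complete, and no laminin holding LAMC3 was in them. RNA of all chains does not show that a complex is formed. Of 23 integrin pairs listed, 10 had both chains at 1 FPKM or more in each ES2 library, 12 in untreated SKOV3 and 13 in treated SKOV3. The lowest chain of alpha6 beta4 was at 0.0671 FPKM in ES2 control and 24.0 in SKOV3 control. The corresponding values were 0 and 5.25 for alphaV beta6. For alpha2 beta1 they were 10.4 and 2.74, and for alpha4 beta1 5.34 and 1.19. Of 11 laminins listed, 7 in each ES2 library and 5 in each SKOV3 library had all chains at 1 FPKM or more. Laminin-411 and laminin-421, which need LAMA4, made up the difference. At 5 FPKM or more the order differed: 4 laminins in each ES2 library, 2 in untreated SKOV3 and 5 in treated SKOV3, and 5, 4, 8 and 7 integrin pairs. LAMA3 was the lowest chain of laminin-332 in all 4 libraries.

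After YY-15 treatment of SKOV3, LAMB3 and ITGB3 were the 2 genes at least 2-fold higher, and none was at least 2-fold lower. LAMB3 stood at 56.1 FPKM untreated and 145 treated, with a log2 ratio of 1.35 [1.35 to 1.40]. ITGB3 was at 23.4 and 54.1 FPKM, a log2 ratio of 1.17 [1.18 to 1.25]. These were 2 of 22 genes compared; of all 13294 genes, 1.66% were higher by that much and 1.31% lower. ITGA3, at 0.61 [0.61 to 0.63], was the third gene at least 1.5-fold higher, and ITGB6, at -0.70 [-0.97 to -0.78], the gene at least 1.5-fold lower. By the same size 6.89% of all genes were higher and 5.69% lower.

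The other laminin chains lay on the same side. All 7 laminin chains compared in SKOV3 were above 0. Other pseudocounts, filters and fold sizes cannot change a sign, and rescaling to TPM could not bring a value above 0 under it in this pair. With the remaining alternatives run, none of the 7 changed sign. Among them LAMB1 was at 0.58 [0.60 to 0.66], LAMA3 at 0.47 [0.51 to 0.62], LAMB2 at 0.43 [0.42 to 0.48], LAMA5 at 0.12 and LAMC1 at 0.09. LAMA4 was not among them, with 80 counts untreated and 128 treated. Nor were LAMC3 (88 and 180 counts), LAMA2 (136 and 124), LAMA1 (16 and 0) and LAMB4 (7 and 0). Of 15 integrin genes compared, 9 were above 0, including ITGAV at 0.47 [0.48 to 0.54], ITGA5 at 0.46 [0.45 to 0.52] and ITGA6 at 0.39 [0.37 to 0.44]. ITGB4 was at 0.15 and ITGB5 at 0.22. ITGB1 was at -0.01, and its sign changed with rescaling to TPM and with removal of the trend on length and GC content.

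Over the 22 genes the median log2 ratio was 0.35 and 16 were above 0, against a median of 0.02 and 52.7% above 0 over all genes. ITGA7, at 0.769 FPKM untreated and 1.33 treated, was compared through the YY-15 library alone. Over the 24 genes with a mean of 1 FPKM or more over the 4 libraries, a choice that does not favour either library, the median was 0.18 and 17 were above 0. The 6 epithelial markers did not move one way in this pair of libraries: the log2 ratio was -1.08 for KRT8, -0.67 for KRT19, -0.31 for KRT7 and -0.09 for KRT18, and 0.36 for CDH1 and 0.29 for EPCAM. Their part in these values was not tested.

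**Figure D3:**
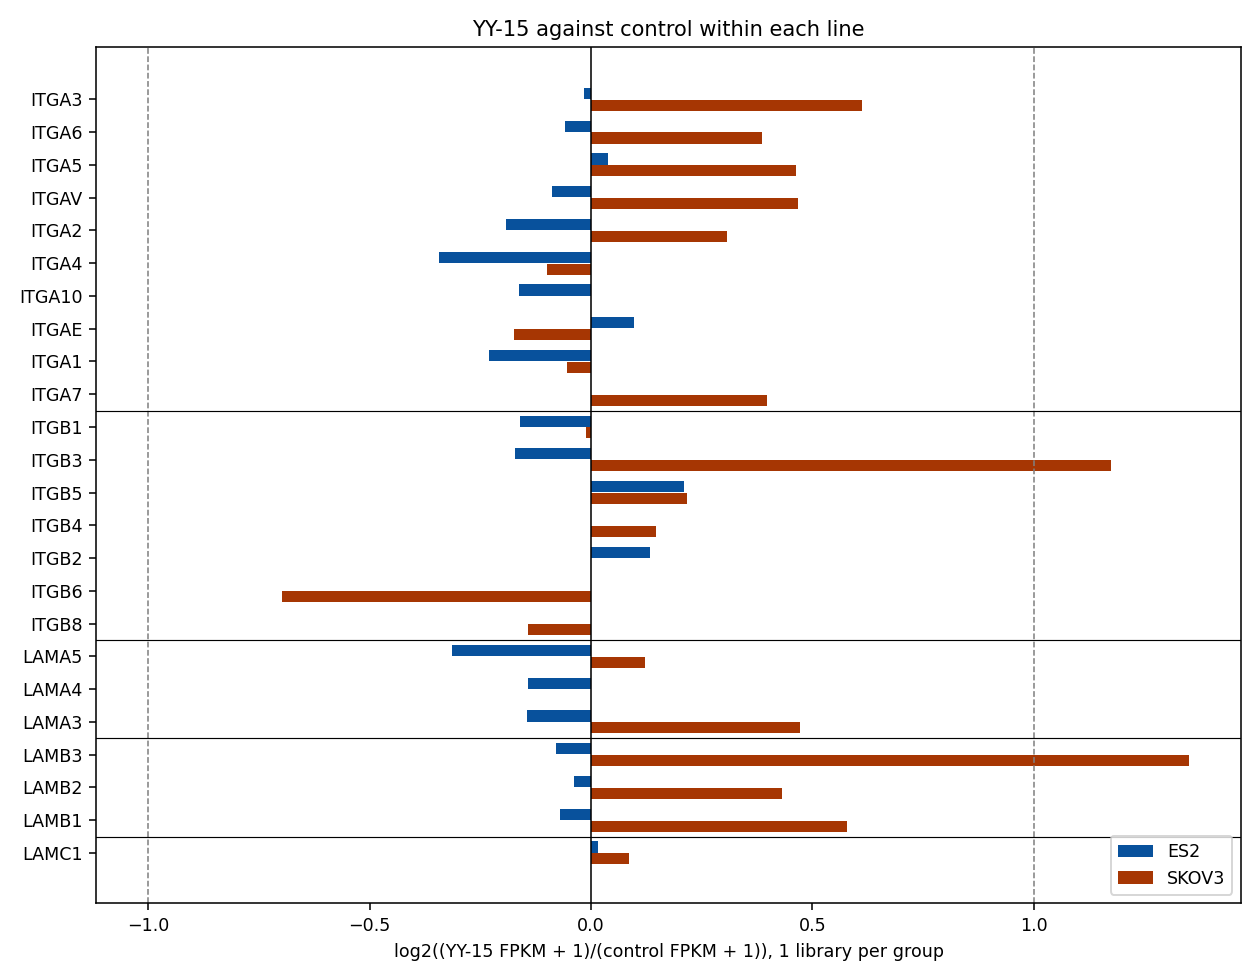
Log2((YY-15 FPKM + 1)/(control FPKM + 1)) of each gene in ES2 (blue) and SKOV3 (brown), with 1 pair of libraries per bar and dashed lines at 2-fold; a bar is left out where neither library of the line reached 1 FPKM. LAMB3 at 1.35 and ITGB3 at 1.17 are the brown bars beyond the dashed line, and the blue bars lie between -0.34 and 0.21.

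In ES2 none of the 21 genes compared was at least 2-fold different, where 0.835% of all 12341 genes were. The ratios ran from -0.34 (ITGA4, 5.34 against 4.0 FPKM) to 0.21 (ITGB5, 26.1 against 30.4 FPKM). LAMB3 was at -0.08 [-0.10 to -0.06], ITGB3 at -0.17 [-0.24 to -0.13] and LAMA5 at -0.31 [-0.39 to -0.31]. Of the 21, 5 were above 0, against 45.7% of all genes, and the median was -0.09 against -0.02 over all genes. The log2 ratio in ES2 followed the GC content of transcripts across all genes (Spearman rho = 0.430 over 12010 genes, which are not independent replicates), and with this trend removed the median of the 21 was -0.07. ITGB4 and ITGA11 were too low to be compared in FPKM: ITGB4 had 33 and 78 counts in ES2 control and YY-15, and ITGA11 0 and 36.

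The ratio in SKOV3 exceeded that in ES2 by 1.43 for LAMB3 and 1.35 for ITGB3 on the log2 scale, with no replicate to test the difference. LAMB3 therefore changed order between the lines. It was lower in SKOV3 than in ES2 between the controls, at -1.04 [-1.08 to -1.03], and higher between the YY-15 libraries, at 0.39 [0.38 to 0.42]. Between the YY-15 libraries 25 genes were compared. ITGB4 (4.64), ITGB3 (2.22) and LAMA5 (2.11) were at least 4-fold higher in SKOV3, where 5.47% of all 14056 genes were, and LAMA4 (-3.39) and ITGB2 (-3.07) at least 4-fold lower, where 2.75% were. Rescaling to TPM, which also weakened the pseudocount and filter, gave 7 higher and 2 lower in place of 3 and 2. With the trend on length and GC content removed, 2 were higher and LAMA5 was at 1.49. ITGB6, at 2.64 between the controls, was at 1.95 between the YY-15 libraries.

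**Figure D4:**
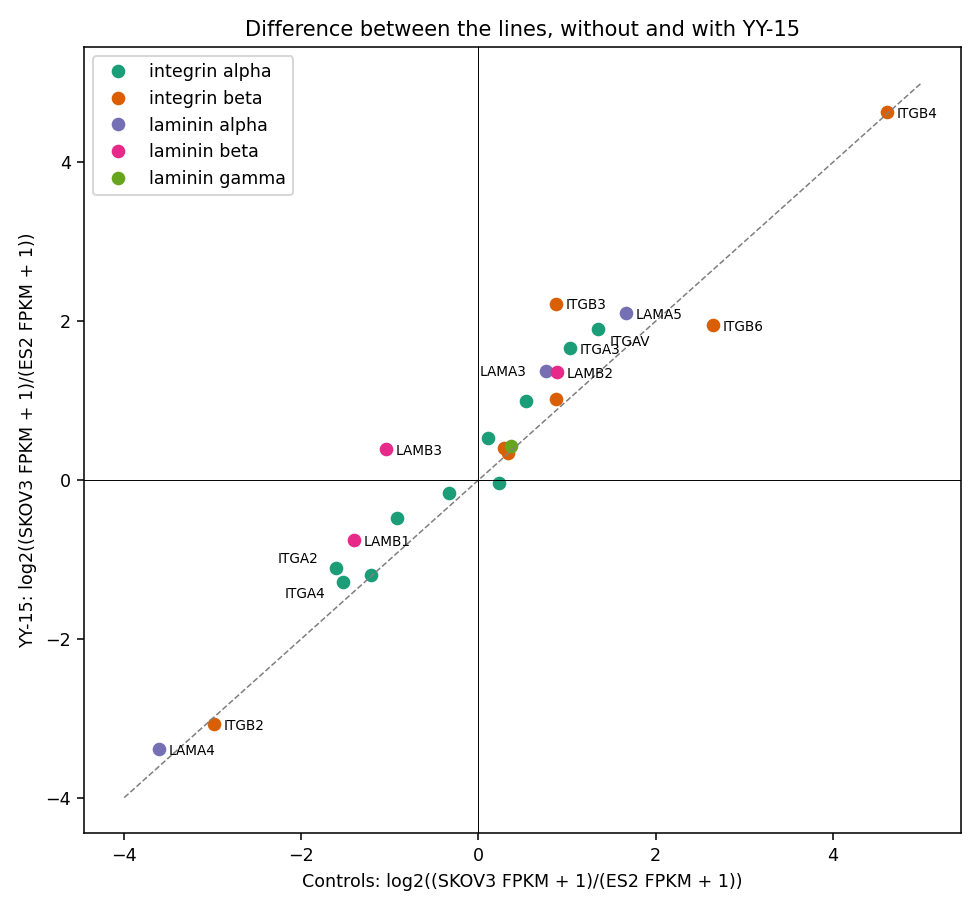
Log2((SKOV3 FPKM + 1)/(ES2 FPKM + 1)) of each gene between the control libraries (horizontal) and between the YY-15 libraries (vertical), with equal values on the dashed line. ITGB4 lies at 4.61 and 4.64 and LAMA4 at -3.61 and -3.39, near the line, while LAMB3 (-1.04 and 0.39) and ITGB3 (0.88 and 2.22) lie above it and ITGB6 (2.64 and 1.95) below.

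Of 16 genes listed for other integrin ligands, 13 were compared in SKOV3 after YY-15. Of these 12 were above 0, where 52.7% of all genes were. None was at least 2-fold lower, where 1.31% were, and 2 were at least 2-fold higher, where 1.66% were. These 2 were FN1 (fibronectin, the ligand of alpha5 beta1), at 169.9 and 342 FPKM and a log2 ratio of 1.01 [1.01 to 1.02], and ICAM1, a ligand of ITGB2 integrins, at 1.33 and 5.80 FPKM and 1.55 [1.95 to 2.31]. TNC, encoding tenascin-C, was at 0.70 [0.74 to 0.85]. In ES2 none of 11 was at least 2-fold different, where 0.835% of all genes were, and FN1 was at -0.17 and ICAM1 at 0.27. Between the controls, CCN2 was lower in SKOV3 (558 FPKM in ES2 against 13.4 in SKOV3, -5.28) and thrombospondin THBS1 higher (8.13 against 235 FPKM, 4.69).

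Of 11 genes for partners of laminin in the basement membrane and its non-integrin receptors, 10 were above 0 between the SKOV3 and ES2 controls and 4 at least 4-fold higher, with a median of 1.78. Of all 14024 genes, 7462 were above 0 and 4.81% at least 4-fold higher; 3 of the 11 reached 1 FPKM in 1 line alone and so had to differ. SDC1, a syndecan that binds laminin, was the gene below 0, at -0.19. COL7A1, the anchoring fibril collagen that binds laminin-332, was at 0.0877 FPKM in untreated ES2 and 49.3 in untreated SKOV3, a log2 ratio of 5.53 [8.73 to 9.43]. NID2, a nidogen that joins laminin to type IV collagen, was at 0.181 and 12.1 FPKM, a ratio of 3.47 [5.71 to 6.37]. After YY-15 in SKOV3 none of the 11 was at least 2-fold different, where 1.66% of all genes were higher and 1.31% lower. NTN4, a netrin that binds the laminin gamma1 chain, was at 0.64, the laminin alpha5 receptor gene BCAM at 0.59 and the dystroglycan gene DAG1 at -0.58. In ES2 8 were compared and none was at least 2-fold different, where 0.835% of all genes were.

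Hemidesmosome partners of ITGA6 and ITGB4 numbered 6. All were above 0 in the comparison of SKOV3 with ES2 controls, where 7462 of 14024 genes were, but KRT5 and KRT14, with a count of 0 in untreated ES2, could be compared through SKOV3 alone and so had to lie above 0. Of the others, COL17A1 was at 1.25 (2.81 against 8.05 FPKM) and PLEC at 0.70. In SKOV3 YY-15 against control, COL17A1 was at 0.26, PLEC at -0.20 and DST at -0.20. Of the 6, 1 was at least 2-fold lower, KRT5 (4.75 against 1.11 FPKM, -1.45), where 1.31% of all 13294 genes were. KRT5, KRT14 and SDC1 were named after their values were seen. In ES2 DST was at -0.81, 8.14 against 4.22 FPKM, and none of 4 was at least 2-fold different, where 0.835% of all genes were.

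Genes that activate integrins or build the adhesion complex on their cytoplasmic side were also listed. Of 25, 20 were compared in SKOV3, with a median of -0.05. None was at least 2-fold different after YY-15, where 1.66% of all genes were higher and 1.31% lower. Such small shares leave 0 unremarkable in a short list, so nothing about these genes is read from it. ACTN4, an actin-bundling protein of adhesions, was at -0.71 [-0.73 to -0.70], the kinase gene SRC at 0.43 and vinculin VCL at -0.34. In ES2 none of 19 was at least 2-fold different, where 0.835% of all genes were. Between the controls 7 of 20 were at least 1.5-fold higher in SKOV3 and 5 at least 1.5-fold lower. Of all 14024 genes, 3909 were higher by that much and 3222 lower. Between the controls, LIMS1, whose product PINCH joins integrin-linked kinase, was at 1.73 and the kindlin gene FERMT1 at -1.83. Of 12 genes for integrin inactivators and trafficking, all compared in ES2 and 11 in SKOV3, none was at least 2-fold different in either line. The shares over all genes were those given above for each line, and nothing is read from this count. KANK2 was at -0.50, DAB2 at 0.33 and SHARPIN at 0.25 in SKOV3, and between the controls DAB2 was at -1.80 and CD81 at 1.03.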

How the data were processed

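Libraries were made from oligo(dT)-selected RNA, with dUTP in the second strand, and read from both ends, per the labels' protocols, which describe no molecular identifiers. Tools listed in the submitters' processing notes are edgeR, DESeq2, StringTie 2.1.6, HISAT2 2.2.1 and cutadapt 1.9; their roles are not given there. The notes name a mouse build, mm10, yet the identifiers are human: all 37 integrin and laminin genes overlapped the same gene in GENCODE 29 on GRCh38. The authors deposited FPKM and counts for each library, per the file headers. The deposited counts are treated as estimated counts, since a count of 1 goes with an FPKM under 0.001 in 210 to 229 genes of a library. All 8 columns of values were used.

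The ratio was computed on the whole table with a pseudocount of 1 over genes at 1 FPKM or more in either library, with Clopper-Pearson 95% intervals from estimated counts. PCR copies are not independent molecules, so intervals cover counting error only. The floor of 3 counts covers that of the lower count alone. The calculation was tested on simulated counts. Genes at 5 FPKM or more in any library, with ITGB4 and ITGA5, are described in full. From each pathway list, the 3 largest SKOV3 ratios and the 2 largest between controls at 5 FPKM or more are named. The values of 1 member are not reported here, although it is in the counts and medians. Members and lists were chosen with earlier results of these data known. Transcript length and GC content came from the longest GENCODE 29 transcript. Alternatives were other pseudocounts, filters, scalings and fold sizes. Calculations used Python 3.11.15, numpy 2.4.6, pandas 2.3.3, scipy 1.17.1 and statsmodels 0.14.6.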

Additional observations from a re-analysis of the deposited data

Results flagged for a closer look

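LAMB3 and ITGB3 differed between the lines: higher in the YY-15 library of SKOV3 by more than 2-fold and little different from control in that of ES2. The ES2 median was -0.09 over the 21 integrin and laminin genes compared and -0.02 over all genes. The log2 ratio in SKOV3 exceeded that in ES2 by 1.43 for LAMB3 (1.35 against -0.08) and by 1.35 for ITGB3 (1.17 against -0.17). With 1 library per group the difference was not tested.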

How the results depend on the processing

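The 2 genes at least 2-fold different in SKOV3 numbered 2 under every other pseudocount, filter and scaling run, 4 at 1.5-fold and 0 at 3-fold. In ES2 the count was 0 under every alternative; no test was possible. Between the controls 4 genes at 4-fold became 1 with a pseudocount of 5, 13 at 2-fold and 2 at 8-fold. Between the YY-15 libraries 5 became 10 with a pseudocount of 0.1, 1 with a pseudocount of 5, 9 after rescaling to TPM, 10 with estimated counts scaled to equal library totals, 15 at 2-fold and 3 at 8-fold. No called gene changed sign, which other pseudocounts, filters and fold sizes could not have altered. The median over the integrin and laminin genes lay between 0.08 and 0.41 in SKOV3 and between -0.17 and -0.05 in ES2. The cause was not tested. No paired analysis was possible because each group held 1 library, so the groups compared share fewer than 2 replicate numbers. A fit of the treatment with the lines as blocks would take the lines as replicates of each other and was not run. Genes under 1 FPKM are limited by depth, and their ratios by the pseudocount.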

Other observations

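Genes within 100000 bases of a laminin or integrin gene were also read; those named here were chosen after their values were seen. G0S2, a lipase inhibitor gene 22987 bases from LAMB3, stood at 27.4 FPKM in untreated and 169 in treated SKOV3 (log2 ratio 2.59) and at 342 and 365 FPKM in the ES2 libraries. CAMK1G, 931 bases from LAMB3, was at 12.8 and 11.3 FPKM in ES2 and at 0.0629 and 0.245 in SKOV3. Near ITGB3, EFCAB13-DT, which overlaps it on the opposite strand, was at 0.63 in SKOV3 (0.708 and 1.65 FPKM), EFCAB13, 9547 bases away, at 0.51 (0.746 and 1.49 FPKM), and the anaphase-promoting complex gene CDC27, 64405 bases away, at -0.15. A large ratio was also found beside a gene that was not higher. TXNIP, 82324 bases from ITGA10, was at 2.57 in SKOV3 (88.0 and 529 FPKM), where ITGA10 was at 0.671 and 0.510 FPKM. Whether position has a part in these values was not tested. LAMB1 and LAMB4 lie 20335 bases apart on chromosome 7, with LAMB1 at 10.8 FPKM or more and LAMB4 at 0.122 or less in every library.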
